A study of Drosophila melanogaster with 12 samples.

Results

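miR-184 was examined in 12 small RNA libraries of Drosophila melanogaster, 9 from adult ovaries and 3 from OSC. OSC are a cell line derived from the somatic cells of the fly ovary. Its members were all listed sequences that begin with the first 18 nt of the 22 nt miR-184 sequence. They numbered 32 of the 95922 distinct sequences listed in all libraries together. Total small RNA was sequenced from krimp heterozygous ovaries, which served as the control, and from krimp mutant ovaries, and so was RNA bound to Piwi and to Aub in each genotype. RNA bound to AGO3 was sequenced from krimp heterozygous, OregonR wildtype and aub mutant ovaries. In the OSC libraries krimp was knocked down and RNA was purified with ectopically expressed myc-Piwi, myc-Aub or myc-AGO3. The labels name a myc antibody for myc-Piwi, but antibodies to Aub and AGO3 for the other two. The labels name no allele of krimp or aub and no age of the flies. The krimp mutant Aub library carries the word control in its source name but is a mutant by title and genotype, and was used as such.

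MicroRNAs are about as long as the shortest RNAs listed here. In flies they are cut from hairpin precursors by Drosha and Dicer-1 and act mainly through Argonaute1, which they guide to matching sites in mRNAs through their seed (bases 2 to 8). Piwi, Aub and AGO3 belong to another branch of the Argonaute family and carry piRNAs, the longer small RNAs that silence transposons, and Krimper is a germline Tudor domain protein of that pathway. miR-184 is a conserved microRNA that is deposited maternally in flies. In the female germline it is known to control stem cell differentiation and egg shell and embryo patterning, with saxophone, K10 and tramtrack69 among its targets. Its gene, mir-184, lies on chromosome arm 2R and overlaps 1 other annotated gene, lncRNA:CR44206, whose synonyms include pri-mir-184 (RefSeq, Release 6 assembly).

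The files list whole-number read counts per sequence, with no sequence under 100 reads, so a sequence that is not listed may have had up to 99 reads. The listed reads of the krimp ovary libraries ranged from 3995126 (heterozygous Aub) to 24979879 (heterozygous total). The OregonR and aub mutant AGO3 libraries listed 814101 and 4573900 reads, and the OSC libraries from 116014 to 390366. These sums are not library depths. Each group had 1 library and no difference has a replicate check, so no p-value is given. Intervals are exact (Clopper-Pearson) at 95% and cover counting error only, since PCR reads without molecular identifiers are not independent molecules. Neither krimp nor aub mRNA was measured, so the genotypes were not checked.

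miR-184 was set beside 54 other microRNAs that were recognised in the heterozygous total library. No other named microRNA shared its seed. The most abundant ones with genes on other arms are shown because their shares are the yardstick for miR-184 below. Each is the most frequent listed form, with U given as T, and capitals mark the seed.
miR-318: tCACTGGGctttgtttatctca
bantam: tGAGATCAttttgaaagctgatt
miR-9c: tCTTTGGTattctagctgtaga
miR-995: tAGCACCAcatgattcggctt
miR-92b: aATTGCACtagtcccggcctg
miR-33: gTGCATTGtagtcgcattgtc

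In total small RNA, miR-184 held a slightly larger share of the listed reads in krimp mutant than in heterozygous ovaries. It had 415618 reads in the heterozygous library, or 1.66% of listed reads (95% interval 1.66 to 1.67). In the mutant library it had 392909 reads, or 1.90% (1.89 to 1.90). The mutant share was 1.14-fold higher, a log2 ratio of 0.19, which is below the 1.5-fold taken here as a difference. The intervals did not overlap, but how far 2 ovary samples of 1 genotype differ is unknown. Among all 18 nt prefix groups listed in both libraries, 45.5% had a share at least 1.5-fold higher in the mutant and 29.9% a share at least 1.5-fold lower.

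Most of the microRNAs near miR-184 in abundance had a smaller share in the mutant. Of the 54 named microRNAs listed in both libraries, 11.1% were at least 1.5-fold higher in the mutant and 22.2% at least 1.5-fold lower. The median log2 ratio of the 53 others was -0.23, and 38 of them had a lower ratio than miR-184. miR-318, an ovary microRNA, was at 7.24% in heterozygous and 3.48% in mutant total RNA. bantam, which promotes growth and restrains apoptosis, was at 4.54% and 2.51%. Next above miR-184 in the heterozygote stood miR-8 with 3.97% and 4.18%, miR-9c with 2.42% and 1.20%, and miR-995 with 1.89% and 1.28%. Next below it were miR-92b with 1.503% and 0.816%, miR-312 with 1.40% and 1.14%, and miR-33 with 1.25% and 0.527%. Of these 8, only miR-8 was higher in the mutant, as miR-184 was. miR-184 thus ranked 6 among the named microRNAs in the heterozygote and 4 in the mutant.

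The difference was larger when only microRNA reads were counted. miR-184 made up 4.53% of named microRNA reads in the heterozygote (4.51 to 4.54) and 7.08% in the mutant (7.06 to 7.10), a 1.56-fold higher share. All named microRNAs together held 36.8% of listed reads in the heterozygote and 26.8% in the mutant. This smaller sum raises every microRNA alike on this measure. The median of the 53 others was then 1.17-fold, and 37 of them were higher in the mutant. As before, 15 of them had a higher ratio than miR-184. A share of either kind moves with every other RNA in the library, and more cells that make miR-184 cannot be told apart from more miR-184 per cell.

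**Figure D1:**
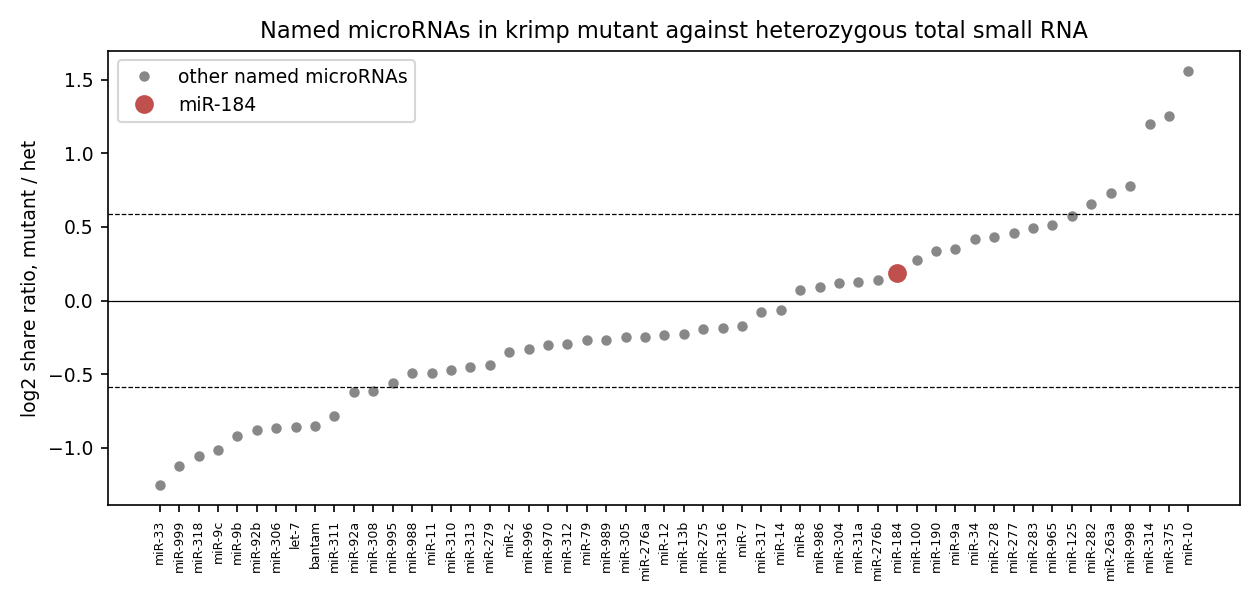
Each point is 1 of the 54 named microRNAs listed in both total libraries, ordered by its log2 ratio of the share of listed reads in krimp mutant over heterozygous ovaries (y axis). Dashed lines mark 1.5-fold, and miR-184 at 0.19 lies between them, above the median of -0.23 of the 53 others.

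The 22 nt sequence was the main form of miR-184 in both total libraries and was more dominant in the mutant. It had 346382 reads in the heterozygote and 347591 in the mutant, or 83.3% and 88.5% of miR-184 reads. With the other 22 nt forms, which differ from it within the last bases, the length of 22 nt held 84.4% (84.3 to 84.5) and 89.2% (89.1 to 89.3), a difference of 4.75 percentage points. Longer forms, of up to 27 nt, held 10.9% and 7.42%. Forms of 20 or 21 nt held 4.72% and 3.42%. The files list no sequence under 20 nt, so shorter forms were not measured.

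The longer forms were mostly the 22 nt sequence followed by A alone, and these made up most of the difference between the libraries. Together they were 7.51% of miR-184 reads in the heterozygote and 4.42% in the mutant, a 1.70-fold difference. With a single A added there were 17252 reads in the heterozygote and 11813 in the mutant, or 4.15% and 3.01%. With 2 A added there were 11004 and 4369 reads, or 2.65% and 1.11%. With 3 A the counts were 2112 and 910, and with 4 A 682 and 269. The form with 5 A had 174 reads in the heterozygote and was not listed in the mutant. The gap between the libraries was thus wider for 2 to 4 A than for 1.

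Forms with other 3′ ends did not all move the same way. The 22 nt sequence followed by U alone was 1.61% of miR-184 reads in the heterozygote and 1.72% in the mutant. With a single C added it was 0.231% and 0.437%, a 1.89-fold higher share in the mutant from 959 and 1718 reads. The 21 nt form that lacks the last base had 16407 and 11355 reads, or 3.95% and 2.89%. The 20 nt form had 3060 and 2065 reads. Forms with another base within positions 19 to 22, most often the 21 nt form followed by A, were 1.83% and 0.975%. The heterozygous library listed 31 forms and the mutant 24, and 23 were in both. Of all RNAs, these libraries listed 30759 and 14672 sequences, so the mutant list was shorter in general. Of these 23, 19 had a smaller and 4 a larger share of miR-184 reads in the mutant. The 8 forms listed in the heterozygote alone had 104 to 174 reads each, close to the minimum. Whether the added bases match the hairpin was not examined here.

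**Figure D2:**
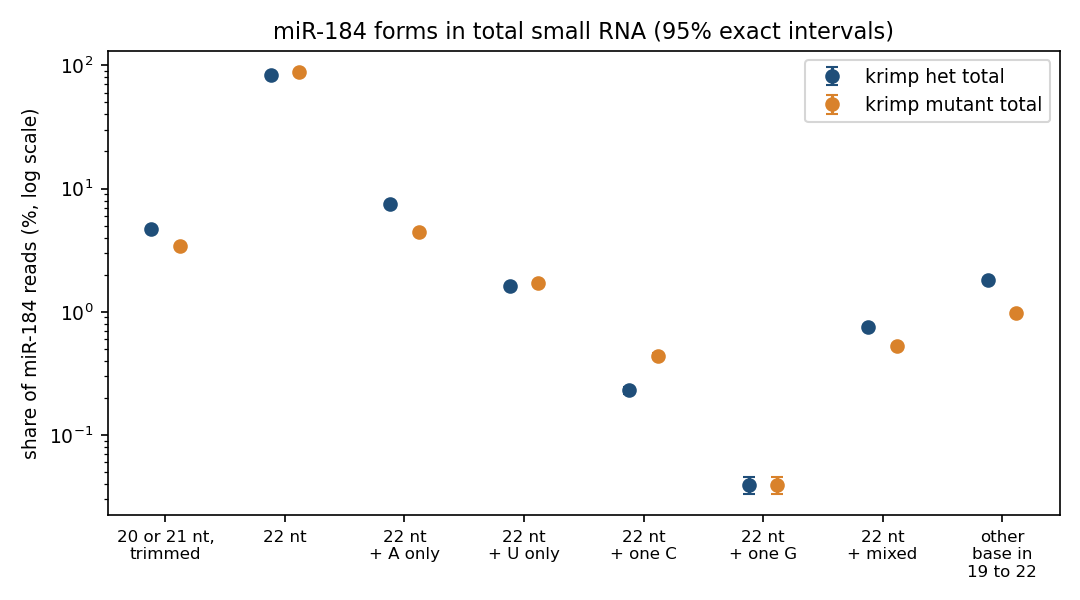
The y axis (log scale) gives the share of miR-184 reads in krimp heterozygous and krimp mutant total small RNA for each kind of form, with exact 95% intervals that are mostly smaller than the points. Forms followed by A alone stand at 7.51% and 4.42%, while those followed by U alone stand at 1.61% and 1.72%.

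Such A additions were also compared in 35 other named microRNAs with at least 10000 reads in both libraries. For each, the main form followed by A alone was counted as a share of its own reads. This share could be compared in 30 of them. It was higher in the mutant in 15 and lower in 15, with a median log2 ratio of -0.03, against -0.77 for miR-184. Only miR-970 had a lower ratio, with 9.67% in the heterozygote and 5.23% in the mutant, from 16440 and 11045 reads. Next came miR-279 with 25.0% and 16.97%. The exact main form had a larger share in the mutant for 14 of the 35 others and a smaller share for 21. The median difference was -0.66 percentage points, against 5.12 for miR-184. For 6 of the 35 the gain was larger than for miR-184, up to 16.6 points. For additions of U alone, the ratio of miR-184 was within the range of the others, with 19 of 27 above it and 8 below.

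**Figure D3:**
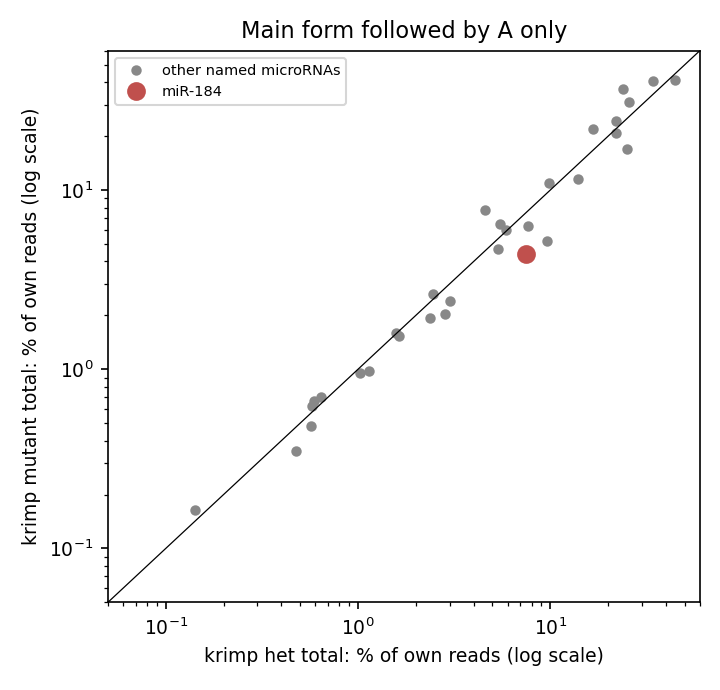
Each point is a named microRNA, placed by the share of its own reads that are its main form followed by A alone, in krimp heterozygous (x axis) and krimp mutant (y axis) total small RNA, both in % on log scales. The line marks equal shares, and miR-184 lies under it at 7.51% and 4.42%.

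In the immunoprecipitates of krimp ovaries miR-184 was present in traces, and the 22 nt sequence was the one listed form. It had 441 reads with Piwi (0.00234% of listed reads, 0.00213 to 0.00257), 118 with Aub (0.00295%, 0.00244 to 0.00354) and 533 with AGO3 (0.00681%, 0.00625 to 0.00742) in heterozygous ovaries. In mutant ovaries it had 1219 reads with Piwi (0.00775%, 0.00732 to 0.00820) and 517 with Aub (0.00961%, 0.00880 to 0.0105). Against total RNA of the same genotype its share was 710-fold lower with Piwi, 563-fold lower with Aub and 244-fold lower with AGO3 in the heterozygote. In the mutant it was 245-fold lower with Piwi and 198-fold lower with Aub. On the log2 scale these ratios ran from -9.47 (heterozygous Piwi) to -7.63 (mutant Aub). The depletion was smaller among listed reads of 20 to 23 nt alone, at -6.54 with AGO3, -4.59 and -2.54 with heterozygous and mutant Piwi, and -4.56 and -3.53 with heterozygous and mutant Aub. Without dominant sequences, described below, it was -7.50 and -6.33 with heterozygous and mutant Aub. The other forms were not detectable at this depth, because at the proportions of the total libraries none would have reached 100 reads.

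miR-184 was listed in more immunoprecipitates than any other named microRNA. Of the 10 immunoprecipitates, 8 listed at least 1 named microRNA, and all 8 listed miR-184. bantam and miR-92b followed with 5 each. In the heterozygous Aub library miR-184 was the one named microRNA listed, and its 118 reads were near the minimum. The mutant Aub library also listed miR-311 with 179 reads, miR-312 with 126 and miR-275 with 108. There miR-311 and miR-275 were less depleted than miR-184, both 181-fold below their total share, and miR-312 was more depleted. In the Piwi libraries and with heterozygous AGO3, most others that reached the minimum were more depleted than miR-184. With heterozygous Piwi, 10 of 13 others were further below their total share, and the median of the 13 was 1300-fold. With mutant Piwi the count was again 10 of 13 and the median 487-fold, and with heterozygous AGO3 it was 5 of 7 and the median 564-fold. A microRNA with no form of 100 reads is missing from these counts.

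**Figure D4:**
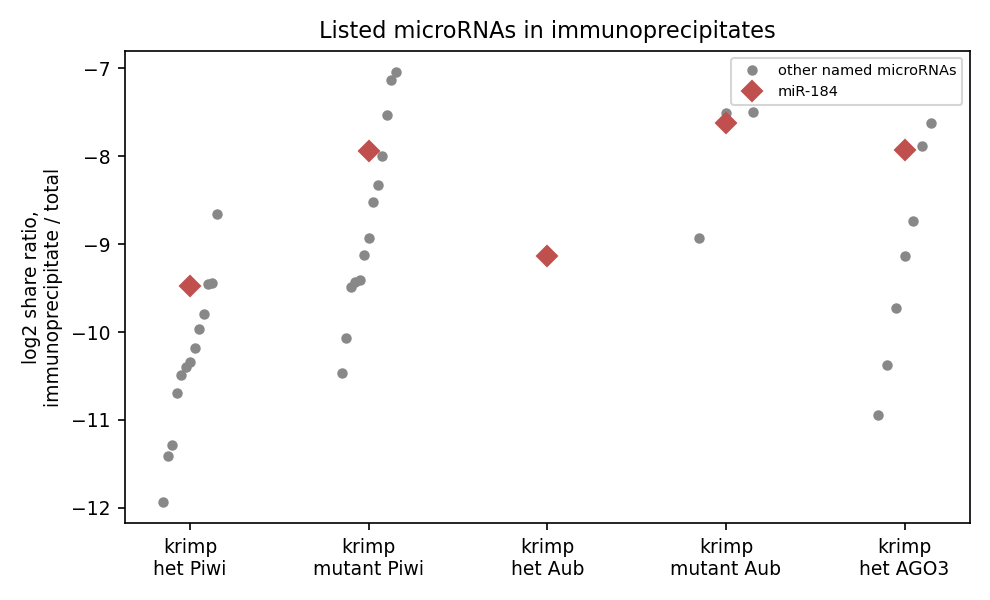
The y axis gives the log2 ratio of the share of listed reads in an immunoprecipitate over that in total RNA of the same genotype, and each point is a named microRNA that both list. miR-184 (diamonds) lies between -9.47 with heterozygous Piwi and -7.63 with mutant Aub, and is the one point for heterozygous Aub.

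As shares of all listed reads, the traces were about 3-fold larger in the mutant. Between genotypes, the share of miR-184 was 3.31-fold higher in mutant than in heterozygous Piwi RNA and 3.25-fold higher in Aub RNA. The Aub value rests on 118 heterozygous reads, near the minimum of 100. The same direction was seen for all 13 other microRNAs listed in both Piwi libraries, with a median of 2.003-fold, and miR-184 ranked 3 of 14, after miR-275 and miR-9c. Of these 14, 85.7% were at least 1.5-fold higher in the mutant and 0% at least 1.5-fold lower. Among all prefix groups listed in both Piwi libraries, 50.7% were higher and 28.5% lower by that measure. In the Aub pair miR-184 was the one named microRNA listed in both, so the 1.5-fold share of named microRNAs was 100% higher and 0% lower. Of all prefix groups in that pair, 37.2% were at least 1.5-fold higher and 34.2% at least 1.5-fold lower. Sequences that were no named microRNA and whose prefix group held at least 1% of a library took up 70.4% of heterozygous and 65.5% of mutant Aub reads. Without them, the mutant share of miR-184 was 2.79-fold higher with Aub and 4.03-fold higher with Piwi. Among named microRNA reads alone, miR-184 was 1.56-fold higher in mutant Piwi RNA (9.43% and 14.8%). With Aub it was 100% in the heterozygote and 55.6% in the mutant. The 100% was fixed because no other was listed there, so no direction can be read from the Aub pair on this measure.

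miR-184 was not listed in the AGO3 libraries of OregonR or aub mutant ovaries. Up to 99 reads of the 22 nt form are possible there, or 0.0122% of OregonR and 0.00216% of aub mutant listed reads. The OregonR limit lies above the 0.00681% of heterozygous AGO3, so a like level was not detectable. The aub mutant limit lies below it, but 91.0% of aub mutant reads belonged to such dominant sequences. Of the remaining reads the limit was 0.0242%, above the 0.00801% of heterozygous AGO3.

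In OSC immunoprecipitates the share of miR-184 was higher than in those of ovaries. It was 0.146% of listed reads with myc-Piwi (0.128 to 0.167, 225 reads), 0.422% with myc-Aub (0.386 to 0.461, 490 reads) and 0.867% with myc-AGO3 (0.838 to 0.896, 3383 reads). It ranked 3 of 3 named microRNAs with myc-Piwi, 2 of 6 with myc-Aub and 1 of 18 with myc-AGO3. No total library of OSC was analysed here, so its level in the cells is unknown. The libraries also differ in source, in the proteins being ectopically expressed and in the antibody. The OSC libraries listed far fewer reads, 116014 to 390366. Reads of sequences under the minimum are missing from these sums, which raises every listed share by an unknown amount. A single unlisted sequence could hold up to 0.0254% with myc-AGO3 and 0.0853% with myc-Aub. Both lie above the 0.00961% of mutant Aub, the highest ovary immunoprecipitate share, so a level like that of ovaries would go unlisted. The size of this effect was not tested. Across the 10 libraries that list it, the order of shares ran from mutant total, heterozygous total, myc-AGO3, myc-Aub and myc-Piwi down to mutant Aub, mutant Piwi, heterozygous AGO3, heterozygous Aub and heterozygous Piwi. In that order the intervals of mutant Piwi and heterozygous AGO3 overlapped, as did those of heterozygous Aub and heterozygous Piwi.

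**Figure D5:**
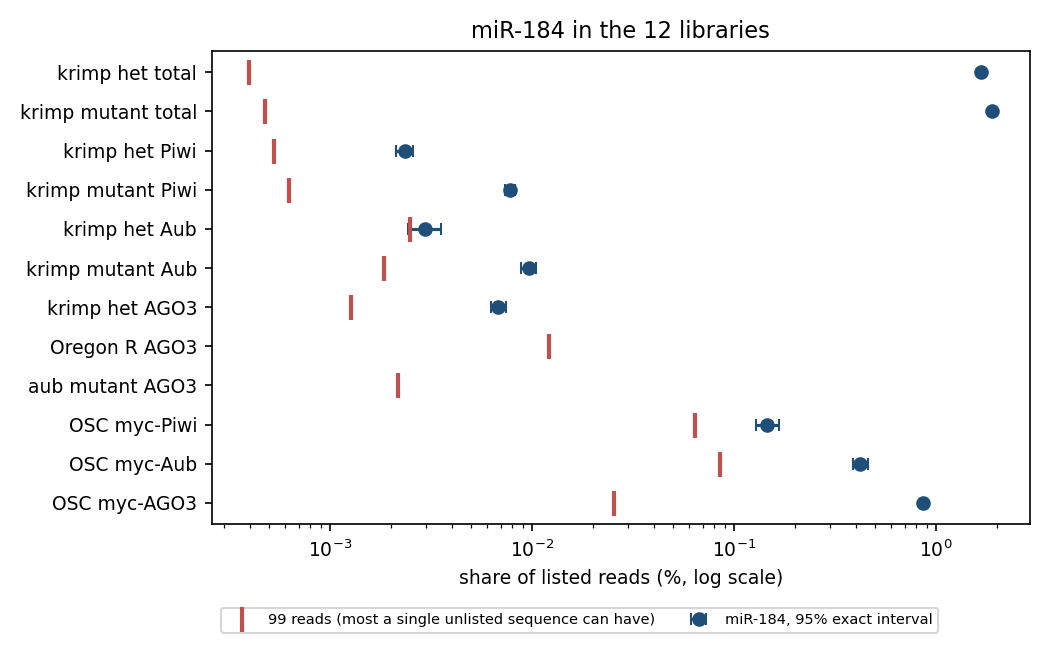
Points give the share of listed reads held by miR-184 in each library (x axis, log scale) with exact 95% intervals, and red marks give the share of 99 reads, the most that a single unlisted sequence can have. The total libraries stand at 1.66% and 1.90%, the OSC libraries at 0.146% to 0.867%, and the ovary immunoprecipitates at 0.00961% or less.

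The myc-AGO3 library was the one immunoprecipitate that listed shorter forms of miR-184. It listed 2571 reads of 22 nt, 626 of 21 nt and 186 of 20 nt. For each 100 reads of the 22 nt sequence there were 24.3 of the 21 nt form, against 4.74 in heterozygous and 3.27 in mutant ovary total RNA. For the 20 nt form the values were 7.23, 0.883 and 0.594. At the heterozygous and mutant total proportions, the 21 nt form would have 10.7 and 7.35 reads with myc-Piwi. With myc-Aub it would have 23.2 and 16.0. These lie below the minimum of 100, so its absence there does not set myc-AGO3 apart from the other 2 proteins. The form with 1 added A was not listed, though 128 reads would be present at the heterozygous and 87.4 at the mutant proportions. Forms trimmed at the 3′ end held 24.002% of miR-184 reads there and 4.68% in heterozygous total RNA. Of the 17 other named microRNAs in that library, 4 had listed trimmed forms. Against heterozygous total RNA, the trimmed share was 17.01% against 3.68% for miR-989 and 78.4% against 42.7% for miR-279. It was 36.9% against 26.6% for miR-9c and 27.9% against 26.2% for bantam. A trimmed form had to reach 100 reads to be counted, which favours a higher share, so these 4 are no support for miR-184. The other 13 had no trimmed form of 100 reads, though 10 of them had trimmed forms in heterozygous total RNA. Among these 10 were miR-92a and miR-283, with 24.1% and 22.5% there. They had 421 and 299 reads with myc-AGO3, too few to tell whether they were trimmed less. The main ovary form was not always the listed one among the 13. It held 0% of reads for miR-275, miR-305 and miR-9b, and 6.97% to 21.6% for miR-14, miR-92b, miR-11 and miR-34. It held 100% for miR-33, miR-276a, miR-999, miR-283, miR-92a and miR-1.

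The microRNAs whose pattern over the krimp ovary libraries was most like that of miR-184 were miR-275, miR-92b and miR-263a, out of 13 that shared at least 4 libraries with it, heterozygous total RNA included. Likeness was the mean absolute difference between log2 shares, each taken relative to heterozygous total RNA. It was 0.27 for miR-275, 0.53 for miR-92b and 0.63 for miR-263a, each over its 4 shared libraries other than heterozygous total RNA. These were not the same 4. They included mutant Aub for miR-275, but heterozygous AGO3 for miR-92b and miR-263a. miR-275 was at 0.416% in heterozygous and 0.364% in mutant total RNA, at 0.000595% and 0.00259% with Piwi, and at 0.00201% with mutant Aub. Its larger trace in the mutant Piwi library entered the measure of likeness. All 13 microRNAs other than miR-184 that both Piwi libraries list had a larger trace in the mutant, so it is not particular to miR-275.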

How the data were processed

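Small RNA was gel-selected (18 to 29 nt for total RNA), Piwi-family proteins were immunopurified, and a TruSeq Small RNA kit was used for library preparation, per the labels' protocols. The authors deposited raw read counts per distinct sequence of 20 to 30 nt, not normalized, with a minimum of 100 reads. The genome build was dm3, per the submitters' processing notes. The aligner and trimmer were not given in the sources used here.

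Reads were assigned by their first 18 nt. The 55 microRNAs, miR-184 included, were recognised by name from general knowledge among the most abundant 5′ ends of the heterozygous total library and not matched to a reference sequence. All 55 names matched gene symbols in RefSeq. The planned comparisons with reference microRNAs therefore use this list, and the exact match uses the 22 nt sequence named by the rule. The name miR-2 covers miR-2a and miR-2b. The members and lists were chosen with earlier results of these data known. Named microRNAs were the 5 most abundant, the 3 next above and below miR-184, the 3 most like it, and any with its seed. Others were named after their values were seen. Share ratios and form classes were tested on simulated data. Python 3.11.15, numpy 2.4.6, pandas 2.3.3 and scipy 1.17.1 were used. The sequence of miR-184 is not reported here.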

Additional observations from a re-analysis of the deposited data

Results flagged for a closer look

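Listed sequences outside the rule were searched for the strand opposite miR-184, and a signal was present in 2 libraries of krimp mutant ovaries that the comparisons above did not use it for. The search asked for sequences of up to 24 nt whose first 8 nt pair with miR-184 so as to leave a 2 nt overhang at its 3′ end, the arrangement of the arms of a microRNA hairpin. It found the same 2 sequences, of 21 and 22 nt, in mutant total RNA and in mutant Aub RNA, and none in the other 10 libraries. In mutant Aub RNA they had 146 and 133 reads, 279 in all, beside 517 reads of miR-184. In mutant total RNA they had 141 and 118 reads, 259 in all, beside 392909. Per 100 miR-184 reads this is 54.0 with Aub and 0.0659 in total RNA, an 819-fold difference. Of listed reads the pair held 0.00519% with Aub (0.00459 to 0.00583) and 0.00125% in total RNA (0.00110 to 0.00141), so it was 4.14-fold higher with Aub, while miR-184 itself was 198-fold lower. The heterozygous Aub library listed neither sequence, but at the mutant share it would hold 108 and 98.8 reads, close to the minimum of 100, so a difference between genotypes was not detectable with Aub. In total RNA, the heterozygous library would hold 170.2 and 142 reads at the mutant share, above the limit of 99, and it listed neither. Among the 55 named microRNAs, the same search found such sequences for 2 in mutant Aub RNA (miR-184 and, with 120 reads, miR-318). miR-184 was the one for which both strands were listed there. In total RNA the search found such sequences for 5 named microRNAs in the heterozygote and 4 in the mutant. Both total libraries listed them for miR-10 (8925 reads in the heterozygote and 15652 in the mutant) and miR-11 (286 and 583). Per 100 reads of the microRNA itself, the mutant values were 15.1 and 0.320, above the 0.0659 of miR-184. Some were listed in the heterozygote alone (miR-318 with 123 reads, miR-998 with 249 and miR-79 with 159). For miR-375, 123 reads were listed in the mutant alone. Without a hairpin sequence the identity of the pair was not checked, and an 8 nt match can arise by chance. At 9 other positions along miR-184 the search found 3 sequences in heterozygous total, 2 in mutant total and 0 in mutant Aub RNA.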

How the results depend on the processing

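The log2 ratio of miR-184 in mutant over heterozygous total RNA stayed above 0 under all 6 alternatives. It was 0.071 among reads of 20 to 23 nt, 0.31 without dominant sequences that are no named microRNA, 0.28 for the exact 22 nt sequence, 0.16 with a common minimum share and 0.65 among named microRNA reads. The last exceeds 1.5-fold, on a scale where the median log2 ratio of the other microRNAs was 0.22. The number of other microRNAs with a lower ratio was 37 of 52 among reads of 20 to 23 nt. It was 37 of 53 for exact sequences and 38 of 53 with a common minimum share. The other alternatives shift every microRNA alike and cannot change it. In 22 nt share, the difference stayed within its interval under both alternatives. Against total RNA, miR-184 remained lower in all 5 immunoprecipitates under each of 4 alternatives. Among reads of 20 to 23 nt the log2 ratios were -4.59 (heterozygous Piwi), -4.56 (heterozygous Aub), -6.54 (AGO3), -2.54 (mutant Piwi) and -3.53 (mutant Aub). All miR-184 reads of these immunoprecipitates were 22 nt and stayed in, so the ratios changed through the longer listed reads left out. The cause of the depletion itself was not tested. Without dominant sequences they were -7.50 (heterozygous Aub), -7.79 (AGO3), -7.75 (mutant Piwi) and -6.33 (mutant Aub). With the exact 22 nt sequence they were -9.21 (heterozygous Piwi), -7.67 (AGO3), -7.76 (mutant Piwi) and -7.45 (mutant Aub). With a common minimum share they were -9.51 (heterozygous Aub) and -8.16 (AGO3). Leaving out sequences at 1% or more between genotypes or among AGO3 libraries was chosen after seeing the data. Matching forms to a hairpin was not run, as none was used here. No paired analysis was possible because each group had 1 library. The minimum of 100 reads limits what can be said of rare forms and of traces.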

Other observations

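Sequences just outside the rule were few. With 1 mismatch in the first 18 nt, the heterozygous total library listed 18 sequences with 2778 reads and the mutant 13 with 1939. With a 5′ end shifted by up to 2 nt they listed 2 sequences with 410 reads and 1 with 169. Together these came to 0.767% and 0.537% of the miR-184 reads of each library. None was listed in an immunoprecipitate.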
